A study of Mus musculus with 20 samples.

Results

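The contacts described here run across the middle of the Oct4 region, a stretch of mouse chromosome 17 (chr17:34428607-36528892, mm9) that was tiled with primers for chromosome conformation capture carbon copy (5C). A contact counted as crossing when it paired a forward and a reverse primer of that region, with one restriction fragment starting below 35.4 Mb of chromosome 17 and the other at or above it. Neither fragment overlapped chr17:35632984-35652984, the window around the Pou5f1 promoter, and the mean count over the 10 5C libraries was at least 10. These conditions left 7123 crossing pairs of the 75889 pairs of all 7 regions that had such a mean, and of the 18434 in the Oct4 region, in which 4581 pairs lay above the middle on the Pou5f1 side and 6241 lay below it. The level of a pair decided whether it entered, and no difference between groups was used. A further 4817 crossing pairs had counts but a mean below 10. The lowest crossing pair inside the limit had a mean of 10.0 counts and the highest outside it had 9.9. The pairs used 307 of the region's 317 primers and spanned 8.56 to 2084 kb, with a median of 882.7 kb. Many pairs share a fragment, so they are not independent of each other.

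Each of the 5 groups had 2 5C and 2 RNA libraries, 20 in all. The groups were induced pluripotent stem (iPS) cells in 2i medium, iPS cells in medium with serum and LIF, primary neural progenitor cells (NPC), embryonic stem (ES) cells in 2i medium, and ES cells in serum and LIF. All groups were labelled 129SvJae x C57BL/6, and the ES cells were the male line V6.5. The NPC were primary cells, taken from the brains of Sox2-eGFP pups on postnatal day 1 and kept as neurospheres, and the iPS cells were derived from such NPC. LIF keeps mouse pluripotent cells from differentiating, and 2i adds the GSK3 inhibitor CHIR99021 and the MEK inhibitor PD0325901. ES and iPS cells were expanded on feeder fibroblasts and then moved to gelatin to remove them. Nothing in the labels shows that the 2 libraries of a group came from different cultures, and the p-values therefore cover the spread between libraries only, which may be technical. The comparisons with ES cells share the same 2 ES libraries, and NPC and iPS cells carry the Sox2-eGFP allele, which the labels do not give for ES cells, so genotype and cell type cannot be told apart there.

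In 5C, chromatin is fixed, cut with HindIII and ligated, and a primer pair yields a product where its 2 fragments were joined. A count therefore rises with how often the fragments lay close together in the nucleus, and it also depends on how well each primer works and on how well each fragment is cut and ligated. The region holds the major histocompatibility complex. Below the middle lie the class III genes, a gene-dense segment with heat shock, complement and housekeeping genes, and H2-D1, a class I heavy chain gene that presents peptides to T cells, starts at the middle. Above it lie Pou5f1, which encodes the pluripotency factor Oct4, housekeeping genes such as Gtf2h4, Tubb5 and Mdc1, and further class I genes.

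RNA markers followed the labelled cell types. The 6 measured pluripotency markers summed to 10.0 and 10.1 CPM (counts per 1000000 assigned reads) in NPC, with Pou5f1, Dppa5a, Tdh, Utf1 and Esrrb at 0, and to 3427 to 5869 CPM in the 8 pluripotent libraries. The 5 measured neural progenitor markers summed to 6996 and 8359 CPM in NPC and to 32.5 to 80.6 CPM in the other libraries. The 5 measured fibroblast markers summed to 772 and 781 CPM in iPS cells in 2i, 2093 and 2182 CPM in iPS cells, 73.7 and 103 CPM in NPC, 381 and 382 CPM in ES cells in 2i, and 808 and 969 CPM in ES cells. These markers did not move as one. Acta2 had 158 and 161 CPM in ES cells in 2i and 681 and 829 CPM in ES cells. Col3a1 went the other way, with 116 CPM in both ES libraries in 2i and 15.6 and 19.2 CPM in ES cells. Thy1 held 60.3 and 76.5 CPM of the sums in NPC. The part of feeder cells in the contacts was not tested. In these bulk libraries, fewer cells with a contact and a weaker contact per cell cannot be told apart. The ES libraries were the deepest, with 26533530 and 25791222 5C counts in all, while the other 8 had 10508118 to 14887963. The median crossing pair had 39 counts in both ES libraries and 15 to 27 in the others. The part of depth in the differences from ES cells was not tested.

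Several of the fragments with the most called contacts held a transcription start, so the promoters of 5 of their genes are shown with the sequence of the 250 bases upstream of the start (RefSeq, GRCm38.p6, 5′ to 3′ on the gene's strand). Slc44a4 (chr17:34914216-34914465) encodes a choline transporter-like protein, Gtf2h4 (chr17:35673744-35673993) a subunit of the transcription and repair factor TFIIH, and Tubb5 (chr17:35838302-35838551) a beta-tubulin. Mdc1 (chr17:35841248-35841497) encodes a mediator of the DNA damage checkpoint, and Ppp1r10 (chr17:35916946-35917195) a nuclear regulatory subunit of protein phosphatase 1. These positions are of GRCm38.p6, and all other positions in the text are of mm9. Capitals mark the letters AGGNGGC, found in the core of the motif of the architectural protein CTCF, and CCAAT, a common promoter box, on either strand.
Slc44a4: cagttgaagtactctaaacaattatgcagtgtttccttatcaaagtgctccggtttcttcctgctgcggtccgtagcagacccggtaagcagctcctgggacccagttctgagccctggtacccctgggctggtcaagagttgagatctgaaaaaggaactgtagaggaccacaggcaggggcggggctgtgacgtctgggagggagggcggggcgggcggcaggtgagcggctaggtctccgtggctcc
Gtf2h4: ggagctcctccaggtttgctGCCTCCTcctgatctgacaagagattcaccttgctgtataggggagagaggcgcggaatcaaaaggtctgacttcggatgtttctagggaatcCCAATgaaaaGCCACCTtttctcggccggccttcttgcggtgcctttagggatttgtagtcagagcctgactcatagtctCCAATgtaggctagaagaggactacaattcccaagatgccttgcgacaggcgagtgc
Tubb5: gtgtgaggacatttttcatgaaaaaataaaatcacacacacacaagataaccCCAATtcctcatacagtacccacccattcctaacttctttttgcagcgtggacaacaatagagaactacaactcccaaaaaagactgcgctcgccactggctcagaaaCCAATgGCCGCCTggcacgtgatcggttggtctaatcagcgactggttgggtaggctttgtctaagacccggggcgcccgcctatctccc
Mdc1: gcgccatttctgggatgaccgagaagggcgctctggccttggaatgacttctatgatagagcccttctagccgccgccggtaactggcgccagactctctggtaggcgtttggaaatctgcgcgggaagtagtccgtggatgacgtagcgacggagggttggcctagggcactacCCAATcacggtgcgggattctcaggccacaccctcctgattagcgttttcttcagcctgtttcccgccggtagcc
Ppp1r10: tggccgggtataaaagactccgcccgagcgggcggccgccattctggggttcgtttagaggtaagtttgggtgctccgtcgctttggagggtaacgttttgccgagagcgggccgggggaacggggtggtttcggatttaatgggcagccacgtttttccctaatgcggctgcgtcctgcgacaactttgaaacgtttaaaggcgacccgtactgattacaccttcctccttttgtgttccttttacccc
The letters AGGNGGC occurred in the promoters of Gtf2h4 (2 times) and Tubb5 (1 time) and in 25% of 32851 mouse promoters of the same length. CCAAT occurred in those of Gtf2h4 (2 times), Tubb5 (2 times) and Mdc1 (1 time) and in 33.8% of all promoters, and no window held AAGCTT, the HindIII site, which 6.22% of all promoters held. The 5 windows had a GC content of 49.2% to 59.2%, against a median of 52.4% over all promoters. A match of letters is no evidence of binding, and its absence says only that the letters are not in this window.

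Crossing pairs differed between NPC and ES cells in both directions, with more of them higher in NPC. Each pair's count was scaled by the total of the pairs at a similar distance in the same region and library, and was called when its adjusted p (edgeR quasi-likelihood test, Benjamini-Hochberg over all 75889 pairs) was below 0.05. Of the 7123 crossing pairs, 918 (12.9%) were called, 669 higher and 249 lower in NPC, while 18% of all pairs were called, 8.76% higher and 9.27% lower. The crossing share was thus below that of all pairs. The median log2 change was 0.26 over the crossing pairs and 0.01 over all pairs.

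The split between higher and lower depended on how the counts were scaled. A term for each primer's total in each library turned it to 270 higher and 456 lower. That term also called 15.1% of all pairs, with 3670 of these 11473 higher, so all pairs turned in the same way. Scaling whole libraries without distance strata gave 567 higher and 369 lower, while 19.6% of all pairs were called, 7618 of 14912 higher. Stratum totals without the highest 1% of pairs, chosen after seeing the data, gave 531 higher and 313 lower, and 327 higher and 196 lower with the primer term added. Of all pairs, these totals called 18.1% (6381 of 13713 higher), and 14% with the primer term (4386 of 10612 higher). In the same direction under all 6 scalings were 189 of the 918 pairs, 112 of them higher and 77 lower. Calls under all scalings, here and below, were counted for crossing pairs only. Whether these keep their calls more or less often than other pairs was not tested. By distance, 186 of 1639 pairs were higher and 55 lower at 750 to 1000 kb, against 13 higher and 12 lower of 224 pairs under 250 kb and 31 higher and 30 lower of 614 at 1500 to 2200 kb. Without ES replicate 2, 405 crossing pairs were called.

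**Figure D1:**
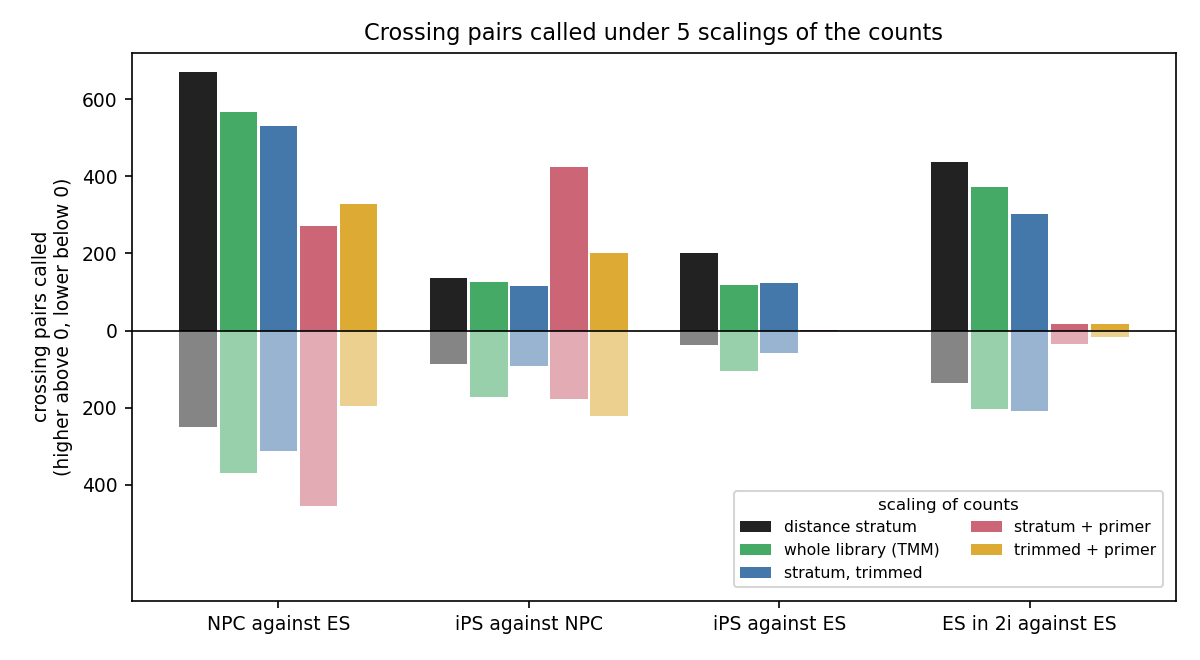
Crossing pairs called in 4 comparisons under 5 scalings (y axis: number of pairs, higher in the first-named group drawn up in full colour, lower drawn down in pale colour). In NPC against ES the 669 higher and 249 lower pairs of the distance stratum scaling become 270 and 456 with a primer term, and the 239 calls of iPS against ES become 2, those of ES in 2i against ES 51.

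Calls were most frequent on some fragments but were spread over many. A pair higher in NPC was called on 239 of the 307 fragments and a lower one on 166. The 10 fragments with the most calls in each direction, picked by that number, took part in 43% of the 669 pairs higher in NPC and in 54.6% of the 249 lower ones. The fragment of forward primer 370 (chr17:35977606-35988580), which holds the Mdc1 start, was higher in NPC in 43 of its 52 crossing pairs and lower in none. The fragment of forward primer 387 (chr17:36046601-36056243) was higher in 36 of 49. It holds the starts of Atat1, a tubulin acetyltransferase, Mrps18b, a mitochondrial ribosomal protein, and Ppp1r10. On the class III side, 28 of 50 crossing pairs of the fragment of reverse primer 136 (chr17:35045699-35053032) with the Slc44a4 start were higher. The fragments of forward primer 328 (chr17:35801537-35814624), with the starts of Gtf2h4 and of the mitochondrial valyl-tRNA synthetase Vars2, and of reverse primer 367 (chr17:35968930-35976578), with the Tubb5 start, had 29 of 79 and 28 of 65 pairs higher.

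The same fragments also rose in contacts that do not cross the middle. On their own side, 60 of 71 pairs of the Mdc1 fragment, 47 of 70 of the Ppp1r10 fragment, 64 of 80 of the Slc44a4 fragment and 37 of 67 of the Tubb5 fragment were called higher in NPC. In all forward-reverse counts across the middle, with the weaker pairs and the Pou5f1 window included, the Mdc1 fragment made up 3526 and 2654 of 1000000 fragment ends (ppm) in iPS cells in 2i, 2180 and 3168 in iPS cells, 4082 and 3956 in NPC, 4686 and 3438 in ES cells in 2i, and 543 and 626 in ES cells. The 2 ES libraries were low and did not overlap with any of the other 8. In contacts on its own side of the middle, the fragment held 2334 and 2109 ppm in iPS cells in 2i, 1635 and 2722 in iPS cells, 2290 and 2245 in NPC, 2853 and 2927 in ES cells in 2i, and 383 and 425 in ES cells. In contacts with other regions it held 1079 to 2237 ppm in the 8 libraries and 287 and 320 in ES cells. The fragment was thus low in ES cells in crossing, own-side and between-region contacts alike.

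Over the 285 fragments with at least 10 pairs of each kind, the median log2 change of the crossing pairs went with that of the own-side pairs. The correlation over these fragments was 0.86 in NPC against ES, 0.77 in iPS against NPC, 0.88 in iPS against ES and 0.91 in ES in 2i against ES, as a description, since both medians come from the same primers and libraries. In NPC against ES, 33 fragments had a crossing median of at least 1, and the own-side median was above 0 in all 33 and at least 1 in 16. Of the 36 fragments whose crossing signal was 2-fold higher in NPC, 7 (19.4%) held a transcription start, against 22 of 266 (8.27%) of those that changed less than 2-fold. Median fragment length was 3.78 kb for those 36 and 3.15 kb for the 266.

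**Figure D2:**
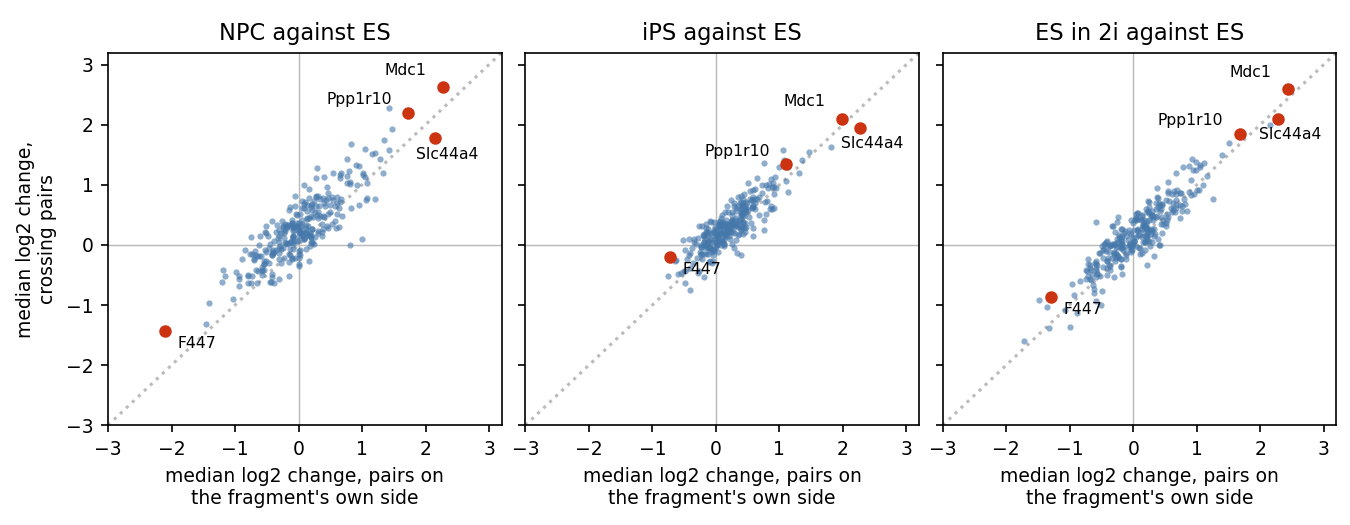
Median log2 change of a fragment's crossing pairs (y axis) against that of its pairs on its own side of the middle (x axis), 1 point for each of 285 fragments, with the dotted line at equal change. Points follow the line (correlation 0.86, 0.88 and 0.91), with the Mdc1, Ppp1r10 and Slc44a4 fragments high on both axes and the fragment of forward primer 447 (F447) low on both.

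Single contacts between gene-rich fragments of the 2 sides were among those most raised in NPC. Pairs named by size of change, here and below, had to be called, with a mean of at least 50 counts and no overlap of the compared groups. Absence of overlap between those groups is therefore no further support. A pair could reach that mean through a single group, and the deeper ES libraries weighed more in it. The pair of the Ppp1r10 fragment with the fragment of reverse primer 150 (chr17:35114203-35122981), which holds the start of Lsm2, an RNA-binding protein of the U6 splicing particle, spans 932.8 kb. Its distance-scaled count was 67.1 and 43.6 in iPS cells in 2i, 27.9 and 68.4 in iPS cells, 169 and 204 in NPC, 127 and 115 in ES cells in 2i, and 8.68 and 9.28 in ES cells. NPC were highest, ES cells lowest, and neither overlapped with another group. The log2 change of NPC over ES was 4.10 (SE 0.48, edgeR adjusted p = 7.2e-06), and 1.75 with the primer term. Of its 35 neighbours within 30 kb at both ends, 29 had the same sign and 9 were also called higher. Neighbours can share a fragment with a pair, so they are not independent of it. Of called crossing pairs with at least 3 neighbours, 86.2% had a called neighbour of the same sign in NPC against ES. On average 67.4% of their neighbours shared the sign. These values were 59.7% and 67.8% in iPS against NPC, and 80.6% and 65.9% in ES in 2i against ES.

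The Ppp1r10 fragment also met the fragment of reverse primer 143 (chr17:35085337-35101629), with the start of Hspa1b, an inducible HSP70 chaperone, more in NPC. Scaled counts were 126 and 204 in NPC and 12.2 and 7.42 in ES cells (log2 change 3.82, SE 0.52, edgeR adjusted p = 4.12e-05). The pair of the Ppp1r10 fragment with reverse primer 194 (chr17:35300043-35307274) had 159 and 169 in NPC and 19.3 and 9.98 in ES cells (log2 change 3.32, SE 0.51, edgeR adjusted p = 0.000137). With the primer term these 2 changes were 2.13 and 1.25.

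The contact of the Slc44a4 gene (forward primer 137, chr17:35053034-35061588) with Gnl1, a GTP-binding protein gene (reverse primer 398, chr17:36117786-36122598), spans 1063 kb. Scaled counts were 114 and 67.9 in iPS cells in 2i, 69.2 and 84.7 in iPS cells, 99 and 171 in NPC, 187 and 101 in ES cells in 2i, and 6.64 and 16.2 in ES cells. Both ES libraries lay below all of the other 8. NPC exceeded ES by 3.34 on the log2 scale (SE 0.49, edgeR adjusted p = 9.71e-05), by 2.89 with the primer term and by 2.50 with the primer term and the trimmed totals. Around it, 34 of 41 neighbours had the same sign and 10 were also called higher.

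One fragment held the largest part of the contacts lower in NPC. The fragment of forward primer 447 (chr17:36288268-36291497), inside the gene 2410017I17Rik, was lower in NPC in 55 of its 85 crossing pairs and higher in none, with a median log2 change of -1.43. It took 7.65% and 7.45% of all crossing counts in iPS cells in 2i, 8.19% and 6.16% in iPS cells, 3.02% and 3.34% in NPC, 5.22% and 5.27% in ES cells in 2i, and 11.8% in both ES libraries. The NPC libraries were lowest and the ES libraries highest, and neither overlapped with the rest. The loss ran along the whole lower side, with 13 of 30 pairs lower at 34.4 to 34.8 Mb, 15 of 22 at 34.8 to 35.1 Mb, 17 of 22 at 35.1 to 35.3 Mb and 10 of 11 at 35.3 to 35.4 Mb.

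The fragment's contacts on its own side fell too, by a median of 2.11 on the log2 scale, with 63 of 74 pairs called lower in NPC. Without its own highest pair, it held 26047 and 30025 ppm of the own-side counts in iPS cells in 2i, 27580 and 23476 in iPS cells, 11958 and 12248 in NPC, 18470 and 21860 in ES cells in 2i, and 41976 and 42834 in ES cells. Without that pair NPC were lowest and ES cells highest, as across the middle. The pair itself, with reverse primer 235, did not follow this order, with 35926 and 14726 ppm in iPS cells in 2i, 12053 and 12888 in iPS cells, 36843 and 26156 in NPC, 27834 and 22376 in ES cells in 2i, and 21141 and 10955 in ES cells. With it included, the fragment held 19808 and 18086 ppm of own-side fragment ends in iPS cells, 24255 and 19081 in NPC and 31468 and 26851 in ES cells, so NPC were then not lowest. In contacts with other regions it held 4906 and 5284 ppm in NPC and 9986 and 7219 in ES cells. NPC were again below ES cells there.

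One of the strongest of these contacts ended at Nfkbil1, an NF-kappa-B inhibitor-like gene at the class III edge (reverse primer 203, chr17:35371613-35374299, 916.9 kb away). Scaled counts were 1635 and 1134 in iPS cells in 2i, 1491 and 1297 in iPS cells, 561 and 533 in NPC, 1144 and 972 in ES cells in 2i, and 2656 and 3319 in ES cells. NPC lay below every other library and ES cells above. NPC over ES was -2.44 on the log2 scale (SE 0.26, edgeR adjusted p = 2.49e-06) and -1.61 with the primer term. The contact with reverse primer 79 (chr17:34816254-34818069, 1473 kb away) had 48.4 and 73.9 in NPC and 591 and 669 in ES cells (log2 change -3.33, SE 0.37, edgeR adjusted p = 3.43e-06). With the primer term and trimmed totals this change was -0.57 and was not called (edgeR adjusted p = 0.12).

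**Figure D3:**
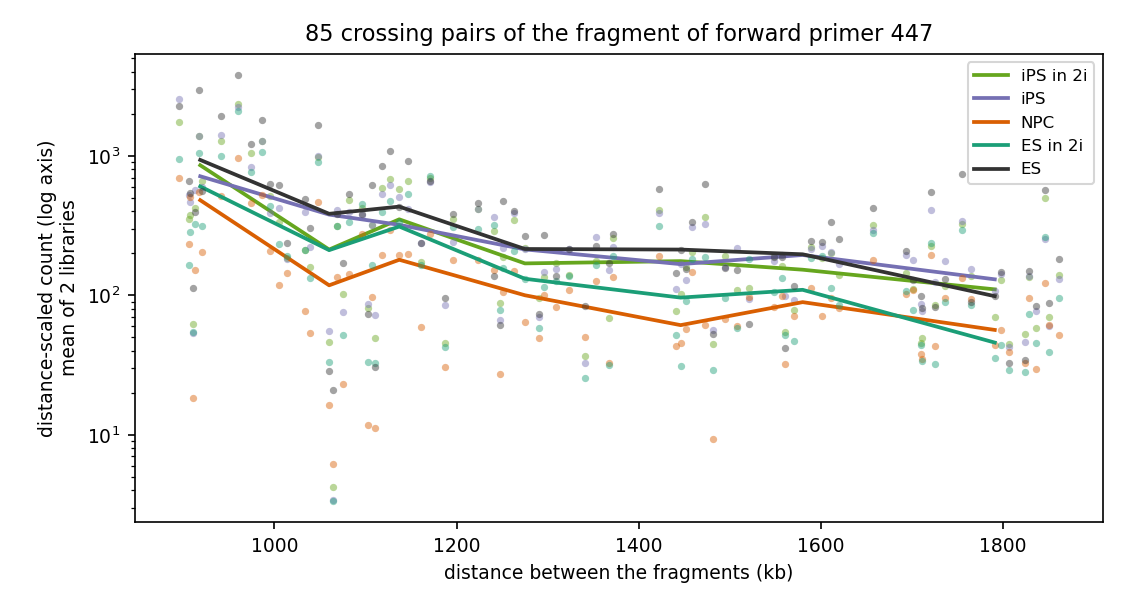
Distance-scaled counts (y axis, log scale, mean of 2 libraries) of the 85 crossing pairs of the fragment of forward primer 447 against the distance between the fragments in kb (x axis), with lines joining group medians in 7 distance intervals. The NPC line lies below the ES line throughout, as in the contact 916.9 kb away with 561 and 533 in NPC against 2656 and 3319 in ES cells.

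Of the other lower contacts that met the naming rule, 1 ended on the neighbouring fragment and the others elsewhere. Forward primer 133 (chr17:35039456-35040447) with reverse primer 288 (chr17:35664745-35666362, 625.6 kb) had scaled counts of 31.8 and 54.3 in iPS cells in 2i, 29.4 and 35.7 in iPS cells, 11 and 43.0 in NPC, 14.1 and 43.9 in ES cells in 2i, and 274 and 186 in ES cells. Both ES libraries lay above the other 8, and NPC over ES was -3.03 on the log2 scale (SE 0.56, edgeR adjusted p = 0.000768) and -2.89 with the primer term. Of its 39 neighbours, 18 had the same sign and 2 were called lower. H2-D1 (forward primer 215, chr17:35395228-35405709) and the fragment of reverse primer 446 (chr17:36284543-36288266), next to that of forward primer 447, had 4.31 and 6.70 in NPC and 57.7 and 47.8 in ES cells (log2 change -2.88, SE 0.56, edgeR adjusted p = 0.00127). The primer term took this call away (log2 change -1.09, edgeR adjusted p = 0.185). Forward primer 170 (chr17:35201058-35201448) with reverse primer 386 (chr17:36045248-36046599, in Atat1, 844.7 kb) had 36.6 and 18.6 in NPC and 207 and 288 in ES cells (log2 change -3.05, SE 0.57, edgeR adjusted p = 0.000864). It was -1.89 with the primer term and lost its call with trimmed totals added (log2 change -1.42, edgeR adjusted p = 0.0672).

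Fewer crossing pairs were called between iPS cells and the NPC they derive from. In iPS against NPC, 222 (3.12%) were called, 135 higher and 87 lower in iPS cells, while 6.85% of all pairs were called, 4.88% higher and 1.98% lower. The median log2 change was 0.05 over crossing pairs and 0.17 over all pairs. Whole-library scaling turned the split to 126 higher and 172 lower, and the primer term gave 425 higher and 177 lower, or 200 higher and 222 lower with trimmed totals. Of all pairs, whole-library scaling called 9.73% (3006 of 7384 higher) and the primer term 14.4% (7268 of 10926 higher). With trimmed totals added, 13.5% of all pairs were called (6106 of 10270 higher). Under all 6 scalings, 92 pairs were called in the same direction, 44 higher and 48 lower. Without iPS replicate 1, 34 pairs were called.

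The fragment of forward primer 447 accounted for 35 of the 135 pairs higher in iPS cells and for none of those lower. Its contact with the Nfkbil1 fragment rose by 1.35 on the log2 scale over NPC (edgeR adjusted p = 0.00255). The H2-D1 contact with reverse primer 446 had 53.4 and 76.0 in iPS cells and 4.31 and 6.70 in NPC. The log2 change was 3.17 (SE 0.57, edgeR adjusted p = 0.00174), or 2.14 with the primer term. Forward primer 95 (chr17:34862531-34865340) with reverse primer 288 had 63.8 and 66.2 in iPS cells and 11.6 and 8.67 in NPC (log2 change 2.45, SE 0.51, edgeR adjusted p = 0.0054), and 12 of its 13 neighbours had the same sign. Forward primer 341 (chr17:35863591-35873306) with reverse primer 199 (chr17:35344693-35351922) had 147 and 113 in iPS cells and 3.59 and 26.6 in NPC (log2 change 2.96, SE 0.54, edgeR adjusted p = 0.00196). It lost its call with the primer term (log2 change 1.51, edgeR adjusted p = 0.0651), and 26 of its 64 neighbours had the same sign, with none called and a median of -0.41.

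The largest fall in iPS cells was in a single contact that stood far above its surroundings in NPC. Forward primer 156 (chr17:35158871-35161167) with reverse primer 327 (chr17:35798796-35801535, in Vars2), 640.1 kb apart, had scaled counts of 461 and 783 in iPS cells in 2i, 401 and 470 in iPS cells, 11280 and 6883 in NPC, 409 and 894 in ES cells in 2i, and 1067 and 1668 in ES cells. Both NPC libraries were above every other library. The change of iPS over NPC was -4.38 on the log2 scale (SE 0.38, edgeR adjusted p = 4.33e-07), -2.97 with the primer term and -4.04 with the primer term and trimmed totals. NPC over ES was 2.73 (edgeR adjusted p = 2.29e-05). Averaged over libraries, its level was 54.7 times the median of its 64 neighbours within 30 kb. Of those, 30 had the same sign as the pair in iPS against NPC and 1 was called lower. The fragment of Psors1c2, a gene of the psoriasis susceptibility locus (forward primer 291, chr17:35669784-35671795), with reverse primer 172 (chr17:35213513-35216605, 455.7 kb) had 18.6 and 26.6 in iPS cells and 349 and 125 in NPC. The log2 change was -3.28 (SE 0.52, edgeR adjusted p = 0.000578), or -2.25 with the primer term. Forward primer 356 (chr17:35916586-35916944) with reverse primer 116 (chr17:34946053-34952143, 967.7 kb) had 14.6 and 45.6 in iPS cells and 438 and 226 in NPC (log2 change -3.37, SE 0.57, edgeR adjusted p = 0.00097). The Ppp1r10 fragment was lower in iPS cells than in NPC in 6 of its 49 crossing pairs.

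A few such pairs dominated the crossing counts. The highest pair, forward primer 406 (chr17:36139541-36142500, in A930015D03Rik) with reverse primer 190 (chr17:35284590-35285174), took 10.9% of all crossing counts, and the 71 highest pairs, 1% of the 7123, took 25.5%. Its raw counts were 10515 and 38481 in iPS cells in 2i, 36317 and 45920 in iPS cells, 34436 and 19177 in NPC, 12972 and 39266 in ES cells in 2i, and 69491 and 89213 in ES cells. Replicates of a group differed by up to several-fold, and NPC over ES was -0.88 on the log2 scale (SE 0.43, edgeR adjusted p = 0.165). The pair lay 1741 times above the median of its 42 neighbours, none of which was called lower in NPC. Such pairs weigh on the stratum totals, which is why totals without the highest 1% were also used.

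In iPS against ES, 239 crossing pairs (3.36%) were called, 201 higher and 38 lower in iPS cells, while 5.23% of all pairs were called, 3.78% higher and 1.45% lower. The median log2 change was 0.33 over crossing pairs and 0.18 over all pairs. Whole-library scaling gave 118 higher and 106 lower, and trimmed totals 124 higher and 58 lower. Of all pairs, these called 6.26% (2528 of 4747 higher) and 5.09% (2599 of 3859 higher). A primer term left 2 crossing pairs, and with trimmed totals it left none, while 0.0277% and 0.0145% of all pairs remained called. Without ES replicate 1, 43 were called. The 10 fragments with the most higher calls, picked by that number, took part in 62.7% of the higher pairs, and 144 of 307 fragments had a higher call.

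The Mdc1 fragment led again, with 28 of its 52 crossing pairs higher in iPS cells, followed by the Slc44a4 fragment with 24 of 50. The Mdc1 fragment with reverse primer 214 (chr17:35394340-35395226, 588.3 kb) had scaled counts of 58.3 and 59.1 in iPS cells in 2i, 105 and 84.4 in iPS cells, 80.6 and 95.4 in NPC, 97.9 and 59.8 in ES cells in 2i, and 8.72 and 5.73 in ES cells. The ES libraries lay apart below the other 8, and iPS over ES was 3.39 (SE 0.45, edgeR adjusted p = 8.57e-05). It was 0.84 with the primer term (edgeR adjusted p = 0.622). The Mdc1 contact with the Lsm2 fragment had 30.5 and 90.4 in iPS cells and 6.21 and 8.22 in ES cells (log2 change 2.77, SE 0.53, edgeR adjusted p = 0.00309), and turned to -0.21 with the primer term. The Gtf2h4 fragment with reverse primer 205 (chr17:35375827-35378607) had 87.5 and 172 in iPS cells and 13 and 25 in ES cells (log2 change 2.65, SE 0.46, edgeR adjusted p = 0.0014).

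Lower in iPS than in ES cells was, among others, forward primer 360 (chr17:35938186-35939255) with reverse primer 174 (chr17:35218411-35223589, 717.7 kb). Scaled counts were 15.4 and 47.8 in iPS cells in 2i, 32.5 and 81.8 in iPS cells, 119 and 24.8 in NPC, 22 and 25.9 in ES cells in 2i, and 242 and 344 in ES cells. ES cells were above every other library, with a change of iPS over ES of -2.31 (SE 0.56, edgeR adjusted p = 0.0171). Forward primer 326 (chr17:35798273-35798794, in Vars2) with reverse primer 207 (chr17:35378804-35379271), which holds the start of Bat1a, an RNA helicase of mRNA export, had 43.2 and 29.8 in iPS cells and 165 and 192 in ES cells (log2 change -2.23, SE 0.45, edgeR adjusted p = 0.00519).

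ES cells in 2i differed from ES cells in serum in 574 crossing pairs (8.06%), 437 higher and 137 lower in 2i, while 12.1% of all pairs were called, 6.67% higher and 5.4% lower. The median log2 change was 0.20 over crossing pairs and 0.00 over all pairs. Whole-library scaling gave 372 higher and 204 lower, and trimmed totals 301 higher and 208 lower. Of all pairs, these called 13% (5532 of 9870 higher) and 11.9% (4698 of 9012 higher). The primer term left 51 calls, 17 higher and 34 lower, and with the term and trimmed totals 34 were called, 17 in each direction. Of all pairs, the term called 1.3% (264 of 989 higher), and 0.913% with trimmed totals (286 of 693 higher). Under all 6 scalings 24 pairs were called in the same direction, 12 higher and 12 lower. Without ES replicate 2, 160 were called.

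The Mdc1, Gtf2h4, Slc44a4, Tubb5 and Ppp1r10 fragments were higher in 2i in 38 of 52, 35 of 79, 28 of 50, 28 of 65 and 27 of 49 crossing pairs and lower in none. The Gtf2h4 fragment with the Slc44a4 fragment, 758.7 kb apart, had scaled counts of 143 and 135 in ES cells in 2i and 12.5 and 8.32 in ES cells. The log2 change was 3.51 (SE 0.44, edgeR adjusted p = 3.2e-05), or 0.25 with the primer term. The Slc44a4 contact with Gnl1 rose by 3.43 (SE 0.49, edgeR adjusted p = 0.000147) and remained called with the primer term (log2 change 2.44, edgeR adjusted p = 0.0124).

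Lower in 2i was the contact of forward primer 360 with reverse primer 174, with the counts given above. ES cells in 2i over ES cells was -3.50 (SE 0.60, edgeR adjusted p = 0.000819), and -4.20 with the primer term. Forward primer 164 (chr17:35182889-35186618) with reverse primer 307 (chr17:35724929-35728239, 541.8 kb) had 3.62 and 10.9 in ES cells in 2i and 90.8 and 102 in ES cells (log2 change -3.40, SE 0.60, edgeR adjusted p = 0.001). Forward primer 303 (chr17:35708436-35709698) with reverse primer 152 (chr17:35126648-35132001, 579.7 kb) had 6.12 and 13.2 in ES cells in 2i and 96.5 and 123 in ES cells (log2 change -3.24, SE 0.64, edgeR adjusted p = 0.0026). Of their neighbours within 30 kb, 3 of 53, 1 of 67 and 0 of 32 were also called lower, while 4 of 42 neighbours of the Gtf2h4 contact with Slc44a4 and 7 of 41 of the Slc44a4 contact with Gnl1 were called higher. Whether these shares differ was not tested. The pairs of reverse primers 307 and 152 had means of 50.2 and 53.9 counts and reached 50 through the ES libraries. Raw counts in ES cells were 170 and 195 for the former and 166 and 214 for the latter. The fragment of forward primer 447 was lower in 2i in 24 of its 85 crossing pairs.

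In iPS cells in 2i against iPS cells, no crossing pair passed the threshold in edgeR's test, while 0.0474% of all pairs were called, 0.0435% higher and 0.00395% lower. At an unadjusted p below 0.05 there were 295 crossing pairs (4.14%), against 7.88% of all pairs, and DESeq2 called 3, though it gave no adjusted p for 6224 of the 7123. In iPS cells in 2i against ES cells in 2i, no crossing pair was called by edgeR, as in all pairs (0%). DESeq2 called none of those it tested and gave no adjusted p for 6147 of the 7123. An unadjusted edgeR p below 0.05 was seen in 255 (3.58%), against 5.13% of all pairs. In simulated data the pair test recovered 1 of 50 pairs raised 2-fold and 3 of 50 lowered to 0.5 times. The absence of calls therefore does not show that such changes were absent. Of the 574 pairs called in ES cells in 2i against ES cells, 346 (60.3%) had the same sign in iPS cells in 2i against iPS cells, which share no library with them. Of the 918 pairs called in NPC against ES, 263 (28.6%) had the same sign in iPS cells in 2i against ES cells in 2i, and of the 239 called in iPS against ES, 83 (34.7%) did. Such shares of equal sign were not counted over uncalled or all pairs. Whether they are particular to the called pairs was therefore not tested.

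The 2i response itself differed between iPS and ES cells in 70 crossing pairs (0.983%) by edgeR's interaction term, 8 with a higher and 62 with a lower response in iPS cells, while 1.97% of all pairs were called, 0.577% higher and 1.4% lower. The median response of these pairs was -0.19 on the log2 scale in iPS cells and 2.77 in ES cells. Of the crossing squares, 10 (8.33%) differed, 4 with a higher and 6 with a lower response in iPS cells, while 10.3% of all squares were called, 3.69% higher and 6.57% lower. A primer term left none of these pairs or squares past the threshold.

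Counts were also summed over squares of 100 kb by 100 kb. Of 120 crossing squares, 41 (34.2%) were called in NPC against ES, 27 higher and 14 lower in NPC, while 51% of all 624 squares were called, 25.2% higher and 25.8% lower. In iPS against NPC, 29 (24.2%) were called, 12 higher and 17 lower, while 41.3% of all squares were called, 25.8% higher and 15.5% lower. In iPS against ES, 10 (8.33%) were called, 7 higher and 3 lower, while 16.3% of all squares were called, 11.1% higher and 5.29% lower. In ES cells in 2i against ES cells, 26 (21.7%) were called, 17 higher and 9 lower, while 33.2% of all squares were called, 19.2% higher and 13.9% lower. In iPS cells in 2i against iPS cells none was called in edgeR's test, while 2.72% of all squares were called (1.44% higher and 1.28% lower), and in iPS cells in 2i against ES cells in 2i none was, as in all squares (0%). Called in the same direction with the primer term, an alternative chosen after seeing the data, were 21, 25, 1 and 5 squares of the first 4 comparisons. That term turned the split of iPS against NPC to 32 higher and 22 lower and that of ES in 2i against ES to 9 higher and 9 lower. With it, 57.2% and 18.6% of all squares were called in these comparisons.

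The square of 35.0 to 35.1 Mb, with Slc44a4, C2, a complement protease, and Hspa1b, with 36.1 to 36.2 Mb, with Gnl1 and Abcf1, rose most in NPC. Its observed counts were 0.621 and 0.583 times those expected from distance in iPS cells in 2i, 0.472 and 0.631 in iPS cells, 0.947 and 1.00 in NPC, 0.684 and 0.703 in ES cells in 2i, and 0.386 and 0.349 in ES cells. NPC lay above and ES cells below the other groups, with a log2 change of 1.41 (SE 0.15, edgeR adjusted p = 7.38e-05), 1.24 with the primer term and 1.35 in scaled sums without its highest pair. The square of 35.3 to 35.4 Mb, with Nfkbil1 and Bat1a, with 36.2 to 36.3 Mb was 1.46 and 1.72 times expected in NPC and 5.71 and 6.74 in ES cells (log2 change -1.97, SE 0.17, edgeR adjusted p = 2.36e-05). In iPS cells it was 5.21 and 3.88 times expected, 1.52 above NPC on the log2 scale (SE 0.17, edgeR adjusted p = 0.000147).

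Some squares rested on 1 fragment or 1 pair. In the band at 36.2 to 36.3 Mb, the scaled counts of all 306 crossing pairs changed by -1.10 on the log2 scale in NPC against ES and by -0.02 without the 85 pairs of forward primer 447. In iPS against NPC the band changed by 0.75, and by -0.13 without them. The square of 34.9 to 35.0 Mb with 35.9 to 36 Mb was called lower in ES cells in 2i (log2 change -1.53, SE 0.20, edgeR adjusted p = 0.00217). Without its highest pair (forward primer 354, chr17:35909124-35909302, with reverse primer 116, 960.1 kb) it changed by 0.46 in scaled counts. That pair had scaled counts of 449 and 787 in ES cells in 2i and 4344 and 6637 in ES cells (log2 change -3.15, SE 0.31, edgeR adjusted p = 1.58e-06), and its change was -0.43 with the primer term (edgeR adjusted p = 0.2).

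**Figure D4:**
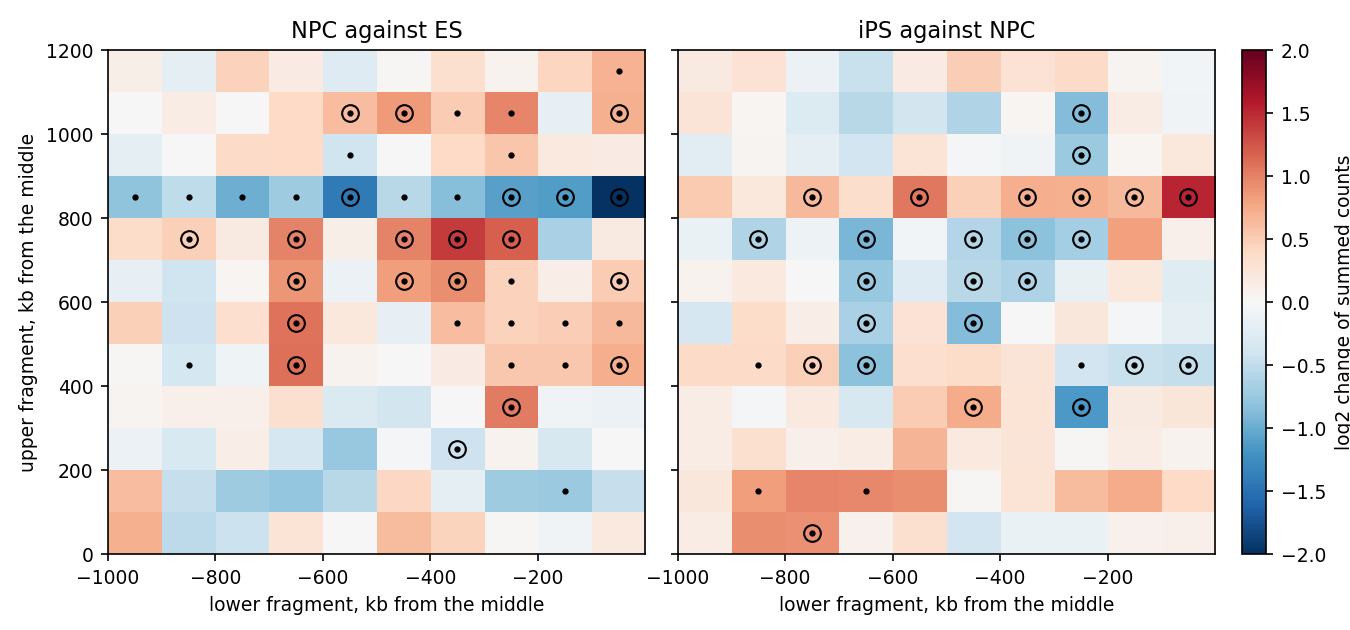
Log2 change of the counts of 120 crossing squares of 100 kb (colour), with the lower fragment's distance below the middle on the x axis and the upper fragment's distance above it on the y axis, both in kb. Dots mark called squares and circles those also called in the same direction with a primer term. NPC against ES shows 27 higher and 14 lower squares, with a blue band at 800 to 900 kb that holds the fragment of forward primer 447 and is red in iPS against NPC.

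Whether the 2 sides came closer was asked with a crossing index, the log2 ratio of the mean count of crossing pairs to that of other Oct4 pairs at equal distance. Only distance strata with at least 20 pairs of each kind entered, and these spanned 27.2 to 1147 kb. Longer crossing pairs, among them the 614 at 1500 to 2200 kb, were left out, so the index does not cover the 2 sides as wholes. The index was -0.69 and -0.46 in iPS cells in 2i, -0.35 and -0.27 in iPS cells, -0.36 and -0.26 in NPC, -0.50 and -0.46 in ES cells in 2i, and -0.46 and -0.30 in ES cells. All 10 libraries were below 0, and the groups overlapped. The sign was not the same under every setting or distance. With each pair capped at the 99th percentile of its library and stratum, the index averaged 0.096 in NPC and -0.15 in the pluripotent libraries. Of the strata used, that of 886 to 1147 kb held the most crossing pairs (1539, against 123 others). Its log2 ratio was 0.21 to 0.90 in the 10 libraries. NPC averaged -0.31 ± 0.08 (SD, n = 2) and the pluripotent libraries -0.44 ± 0.13 (SD, n = 8), a difference of 0.13 (two-sided exact permutation p = 0.267, 0.4 after adjustment over 3 tests). With capped pairs the difference was 0.24 (exact permutation p = 0.0222, adjusted p = 0.0667), and no smaller p is possible with 45 arrangements. These tests take libraries as exchangeable across the groups they pool. The libraries in 2i averaged -0.53 ± 0.11 (SD, n = 4) and those in serum -0.34 ± 0.08 (SD, n = 4). The highest libraries in 2i and the lowest in serum were all at -0.46. The difference of -0.19 had a two-sided exact permutation p of 0.0286, the smallest that 70 arrangements can give, and 0.0857 after adjustment. With capped pairs it shrank to -0.087 (exact permutation p = 0.0857, adjusted p = 0.129). iPS cells averaged -0.44 ± 0.18 and ES cells -0.43 ± 0.09 over both media (SD, n = 4 each), and the difference of -0.01 had an exact permutation p of 0.943.

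**Figure D5:**
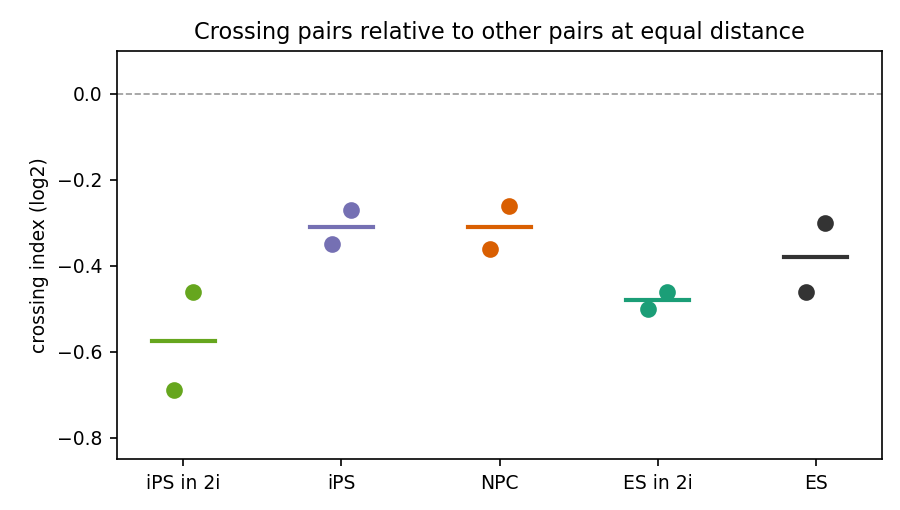
Crossing index (y axis, log2 ratio) of each 5C library, with 2 points and their mean as a bar for each group. All 10 points lie below 0, from -0.69 in an iPS library in 2i to -0.26 in an NPC library.

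The authors' own normalization gave a second view. In their deposited binned contact values, 10595 crossing pairs of bins of 20 kb had a value in all 10 libraries, at distances of up to 1856 kb. In NPC against ES, 2648 of these (25%) were called with limma, 1426 higher and 1222 lower in NPC, while 32.7% of all bin pairs were called. In iPS against NPC, 1334 (12.6%) were called, 416 higher and 918 lower, while 19.2% of all were called. In iPS against ES, 411 (3.88%) were called, 165 higher and 246 lower, while 7.74% of all were called. In ES cells in 2i against ES cells, 1645 (15.5%) were called, 600 higher and 1045 lower, while 21.7% of all were called. The median differences of the crossing bin pairs were 0.00, -0.02, -0.03 and -0.09 in these values, against -0.02, 0.02, -0.02 and -0.02 over all bin pairs. In iPS cells in 2i against iPS cells, limma called none of the crossing bin pairs and 0% of all bin pairs, and 1206 crossing bin pairs had an unadjusted p below 0.05. In iPS cells in 2i against ES cells in 2i it also called none and 0% of all, and 874 had an unadjusted p below 0.05. The 1206 and 874 are of 10595 crossing bin pairs. The share of all bin pairs below that unadjusted p was not counted, so whether they stand out was not tested. Bins overlap by steps of 4 kb, so neighbouring bin pairs share counts. The log base of these values was read as 2 and is not stated in the sources used here, so the differences are in the units of the deposited log values.

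In iPS against NPC, iPS against ES and ES in 2i against ES, more crossing bin pairs were lower than higher, while more of the primer pairs were higher than lower under the stratum scaling. Without the authors' distance correction, NPC against ES had 1023 higher and 2299 lower crossing bin pairs, iPS against NPC 1046 higher and 1111 lower, and iPS against ES 39 higher and 318 lower. Higher and lower calls were not counted separately over all bin pairs, with or without the correction. Whether these splits are particular to crossing bin pairs was therefore not tested. In the authors' deposited table of classes, called on the ES, NPC and iPS libraries, 1658 of 1961 crossing bin pairs (84.5%) were background, against 69.2% of 32065 in all regions. The authors' deposited table put 212 crossing bin pairs (10.8%) in the NPC-only class and 21 (1.07%) in the ES-only class, against 14.8% and 8.08% in all regions.

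RNA of the genes at the ends of the named contacts moved in both directions. Of 19 such genes 18 were measured, and in NPC against ES 3 were higher and 10 lower. Of all 11031 tested transcript models 61% were called, 3013 higher and 3716 lower. Slc44a4 had no counts in NPC, which allows up to 2.61 and 0.823 CPM at these depths, and 12.2 and 19.5 CPM in ES cells (edgeR adjusted p = 8.71e-10). Mdc1 had 8.37 and 11.6 CPM in NPC and 17.4 and 21.1 CPM in ES cells (log2 change -0.82, SE 0.26, edgeR adjusted p = 0.00833). Its fragment's contacts were thus higher, and its RNA lower, in NPC. Mrps18b fell to 16.7 and 23.2 CPM in NPC, against 58.3 and 51.1 CPM in ES cells (log2 change -1.38, SE 0.19, edgeR adjusted p = 2.86e-07). Ppp1r10, on the same fragment, had 301 and 311 CPM in NPC and 304 and 338 CPM in ES cells (log2 change -0.06, SE 0.13, edgeR adjusted p = 0.684). Gnl1 rose to 289 and 306 CPM in NPC, against 128 and 141 CPM in ES cells (log2 change 1.15, SE 0.13, edgeR adjusted p = 6.9e-09).

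In iPS against ES, 11 of the 18 genes were higher and 3 lower, while 52.9% of all models were called, 2862 higher and 2968 lower. In iPS against NPC, 13 were higher and none lower by edgeR's test, while 51.3% of all models were called, 3235 higher and 2428 lower. In ES cells in 2i against ES cells, 2 were higher and none lower by edgeR's test. Of all models 24.5% were called, 1249 higher and 1456 lower. Ppp1r10 was one of the 2 genes, with 437 and 446 CPM in ES cells in 2i and 304 and 338 CPM in ES cells (log2 change 0.46, SE 0.12, edgeR adjusted p = 0.00522), and the other was Mir1894, a microRNA gene inside it whose reads may be shared with it. Mdc1 had 18.5 and 22.2 CPM in ES cells in 2i and 17.4 and 21.1 CPM in ES cells (log2 change 0.11, SE 0.19, edgeR adjusted p = 0.73), and 38 of its fragment's 52 crossing pairs were higher there. 2410017I17Rik, which holds the fragment of forward primer 447, was low throughout, with 0.825 and 0.851 CPM in iPS cells, no counts in NPC and 2.53 and 1.84 CPM in ES cells. Of the class III list 17 of 38 genes were measured, and 8 were higher and 4 lower in NPC than in ES cells, with a median log2 change of 0.53, against -0.20 over all models. Over all 11031 models, 61% were called in that comparison, 3013 higher and 3716 lower. Of the 19 listed genes on the Pou5f1 side 13 were measured, and 5 were higher and 5 lower, with a median of -0.06. Of 11 class I genes 2 were measured, and neither was called in NPC against ES.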

How the data were processed

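5C and RNA libraries of 5 groups, 2 per group and assay, were used. The authors deposited raw 5C counts per primer pair, aligned with Bowtie to mm9 per the submitters' processing notes, binned log2-scale contact values (log base read as 2), and RNA read counts per transcript model (TopHat2 2.1.0 and HTSeq are named in the notes, and the strand setting is not given in the sources used here). Crossing pairs and gene lists were chosen with earlier results of these data known.

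Here, 75889 pairs with a mean of at least 10 counts were tested with edgeR 4.0.16 (R 4.3.3; quasi-likelihood test, 5 group means, 5 residual degrees of freedom, prior count 2) with log totals of 20 distance strata per library and region as offset, and adjusted by Benjamini-Hochberg. Squares needed at least 5 pairs, and the crossing index at least 20 pairs of each kind in a stratum. Binned values were tested with limma 3.58.1 and RNA counts with edgeR. Totals per library were 10508118 to 26533530 5C counts and 1150624 to 17286063 RNA counts, and counting floors (3 counts) cover counting error only. The pair, square, bin and RNA tests were first tested on simulated data. Alternatives were a primer term, other offsets, DESeq2 1.42.0, a replicate block and leaving out each library. Up to 4 higher and 4 lower called pairs per comparison were named by largest change, with a mean of at least 50 counts and no overlap of the groups. The fragments and highest pairs described beside them were chosen after their values were seen.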

Additional observations from a re-analysis of the deposited data

Results flagged for a closer look

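The response to 2i differed between iPS and ES cells in 70 crossing pairs (interaction term, edgeR quasi-likelihood test, adjusted over all pairs), 8 with a higher and 62 with a lower response in iPS cells, while 1.97% of all pairs were called. Of these, 66 were also called in ES cells in 2i against ES cells and none in iPS cells in 2i against iPS cells. Their median log2 response was -0.19 in iPS cells and 2.77 in ES cells, and 19 of them had the Mdc1 fragment and 4 the Gtf2h4 fragment. In 10 crossing squares the response differed too, while 10.3% of all squares were called. No crossing pair or square was called once a primer term was added.

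Of the 26 distinct named contacts, 11 differed in this way. All 11 were named for a large change against the 2 ES libraries in serum, which this difference also contains. It is therefore no further support for those changes. Each difference below is the log2 response to 2i in iPS cells minus that in ES cells, past an edgeR adjusted p of 0.05. For the Ppp1r10 fragment it was -3.31 with the Lsm2 fragment (SE 0.63), -2.84 with the Hspa1b fragment (SE 0.69) and -2.75 with reverse primer 194 (SE 0.69). For the Mdc1 fragment it was -3.80 with reverse primer 214 (SE 0.60), -2.80 with reverse primer 159 (SE 0.71) and -3.82 with the Lsm2 fragment (SE 0.72). For the Gtf2h4 fragment it was -2.96 with reverse primer 205 (SE 0.62) and -2.89 with the Slc44a4 fragment (SE 0.58). The Slc44a4 contact with Gnl1 had -3.21 (SE 0.66). Forward primer 447 with reverse primer 79 had 1.92 (SE 0.47), and forward primer 133 with reverse primer 288 had 3.28 (SE 0.77).

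Ligations between 2 forward or 2 reverse primers across the middle, which the alternating design does not amplify as a contact and which entered no comparison, made up 0.596% of all crossing counts. Their share was 0.11% to 1.18% per library and differed between replicates of a group.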

How the results depend on the processing

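The counts of calls depended on the scaling and on single libraries, and the part of the ES libraries' greater depth was not tested. With the primer term the crossing pairs called were 602 in iPS against NPC, 2 in iPS against ES, 51 in ES in 2i against ES, 1 in iPS in 2i against iPS and 0 for the interaction. With the term and trimmed totals they were 523 in NPC against ES, 422, 0 in iPS against ES, 34 and 0 for the interaction. Of all pairs, the term alone called 14.4%, 0.0277%, 1.3%, 0.00791% and 0.00132% in the comparisons listed for it. With trimmed totals it called 14%, 13.5%, 0.0145%, 0.913% and 0.00527% of all pairs. DESeq2 called 389 in iPS against ES, 3 in iPS in 2i against iPS and 158 for the interaction. Of all pairs it called 7.75%, 0.742% and 4.28% there. Of 363 crossing squares of 50 kb, 123, 76, 31 and 84 were called in the first 4 comparisons. In iPS in 2i against iPS 1 was called, and for the interaction 22. Of all 2023 squares of that size, 46.7%, 35.7%, 15.9%, 32.3%, 2.37% and 9.54% were called, in the same order. Squares of 100 kb with the primer term gave 54 in iPS against NPC, 3 in iPS against ES, 1 in iPS in 2i against iPS and 0 for the interaction. Of all 624 squares, 57.2%, 2.24%, 4.81% and 0% were called there. Bin values without distance correction gave 2157 in iPS against NPC. The cause of these changes was not tested.

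Deviations of same-numbered replicates correlated by -0.044 to 0.161 between groups over all pairs and by -0.012 to 0.173 over crossing pairs, highest between ES and iPS cells in 2i. As not every correlation was over 0.1, the numbers were not taken as pairs. With a replicate block, pair calls were 996, 290, 295, 662, 0, 0 and 111 for the interaction, and 3 squares were called in iPS in 2i against iPS. Of all pairs, 19.9%, 8.49%, 6.51%, 13.9%, 0.153%, 0% and 2.92% were called with the block, and 10.6% of all squares in iPS in 2i against iPS.

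The index difference of iPS and ES reversed to 0.03 without ES replicate 2 and to 0.07 without replicate 1 of iPS in 2i. The Mdc1 contact with the Lsm2 fragment reversed to -0.21 with the primer term and -0.25 with trimmed totals added in iPS against ES, and to -0.04 with the primer term in ES in 2i against ES. Of 576 alternative values of named contacts, 526 kept direction and side of the threshold, 47 lost the call and 3 reversed. Of the 32 named results, the primer term kept 19 (11 lost, 2 reversed), and with trimmed totals it kept 15 (16 lost, 1 reversed).

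Leaving out each library gave 405 to 896 pairs in NPC against ES, 34 to 215 in iPS against NPC, 43 to 329 in iPS against ES, 160 to 714 in ES in 2i against ES, 0 in both comparisons of iPS in 2i, and 12 to 115 for the interaction (fewest without iPS replicate 2). Squares ranged over 28 to 48, 11 to 34, 0 to 13, 10 to 32, 0 to 7, 0 to 0 and 0 to 12. Bin pairs ranged over 1042 to 2740, 308 to 1377, 4 to 502, 206 to 1811, 0 to 0 and 0 to 0. The index differences ranged over 0.07 to 0.18, -0.22 to -0.13 and -0.07 to 0.07, and RNA calls among the end genes over 11 to 13 in NPC against ES, 8 to 14 in iPS against ES and 2 to 3 in ES in 2i against ES.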
